A study of Homo sapiens with 6 samples.

Results

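The genes described here are 10 genes of the Notch pathway, namely the ligands JAG1 and JAG2, the receptors NOTCH1, NOTCH2 and NOTCH3, the nuclear factors RBPJ and MAML2, and the target genes HES1, HEY1 and HEY2. They were taken by gene symbol from the annotation of the array platform, which gave 1 probe set for each. They are 10 of 17687 named genes, on an array of 21448 probe sets. The members were chosen by pathway after values of the same comparison had been seen, the difference of HES1 between EP300 and control cultures among them, so their differences are given as a description, with no test. Transcript levels were measured on Affymetrix whole-transcript arrays in cultures of HS578T, a human breast carcinoma cell line of mesenchymal appearance. The EP300 cultures (3 arrays) carried the expression vector pcDNA 3 with the cDNA of EP300, a lysine acetyltransferase and transcriptional co-activator. The control cultures (3 arrays) carried pcDNA 3 with no insert. Both kinds of culture had been stably transfected, selected with G418 as pools of clones, and grown in low-glucose medium with fetal calf serum, insulin and G418. Whether the 3 replicates of either kind were drawn from 1 transfected pool is not stated, so the spread between cultures may leave out the spread between transfections. The comparison asks how transcript levels differ when the vector carries EP300.

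Notch receptors are cell surface proteins that are switched on by ligands of the Jagged or Delta-like families on a neighbouring cell. Binding lets an ADAM protease and then the gamma-secretase complex cut the receptor, and the freed intracellular part enters the nucleus. There it joins the DNA-binding protein RBPJ and a Mastermind-like protein such as MAML2, and this complex recruits acetyltransferases, EP300 and its paralog CREBBP among them, to genes of the HES and HEY families. Those genes encode basic helix-loop-helix repressors. In the breast the pathway is known for its part in progenitor cells and in tumours with basal features.

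All values are on the log2 scale of the deposited table, and a difference is the mean of the EP300 cultures minus the mean of the control cultures. The median of an array lay between 4.46 and 4.50, its lower quartile between 3.47 and 3.50 and its upper quartile between 6.36 and 6.41. Of 8 mesenchymal markers, 8 read above the upper quartile on all 6 arrays, and of 8 epithelial markers 0 read above the median on all 6. Of 6 endothelial markers 1 (VWF), and of 5 measured leukocyte markers 1 (CD68), read above the median on all 6 arrays. No probe set carries the symbol EP300 in the annotation used, so EP300 was not analysed here and the labels were not checked against it. No detection calls were given, so levels below the array median cannot be told from background.

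The target gene HES1 read about 1 log2 unit higher in the EP300 cultures, and its groups did not overlap. The ligands, the receptors, MAML2 and the other target genes HEY1 and HEY2 differed by less than 0.4 in either direction, with overlapping groups. RBPJ, the DNA-binding factor of the pathway, read 0.65 lower in the EP300 cultures, with 1 EP300 array inside the range of the control arrays. Of the 10 genes, 6 had a difference above 0, where 50.2% of all probe sets did, and the median difference was 0.03, against 0.00098 over all probe sets. Groups did not overlap for 1 of the 10, where 12.2% of all probe sets had groups that did not overlap, 6.3% with the EP300 arrays higher and 5.91% with them lower. With limma, 0 of the 21448 probe sets passed an adjusted p of 0.05 (0% called), and 1399 (6.52%) had an unadjusted p below 0.05, 741 of them higher (3.45%) and 658 lower (3.07%) in EP300 cultures.

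**Figure D1:**
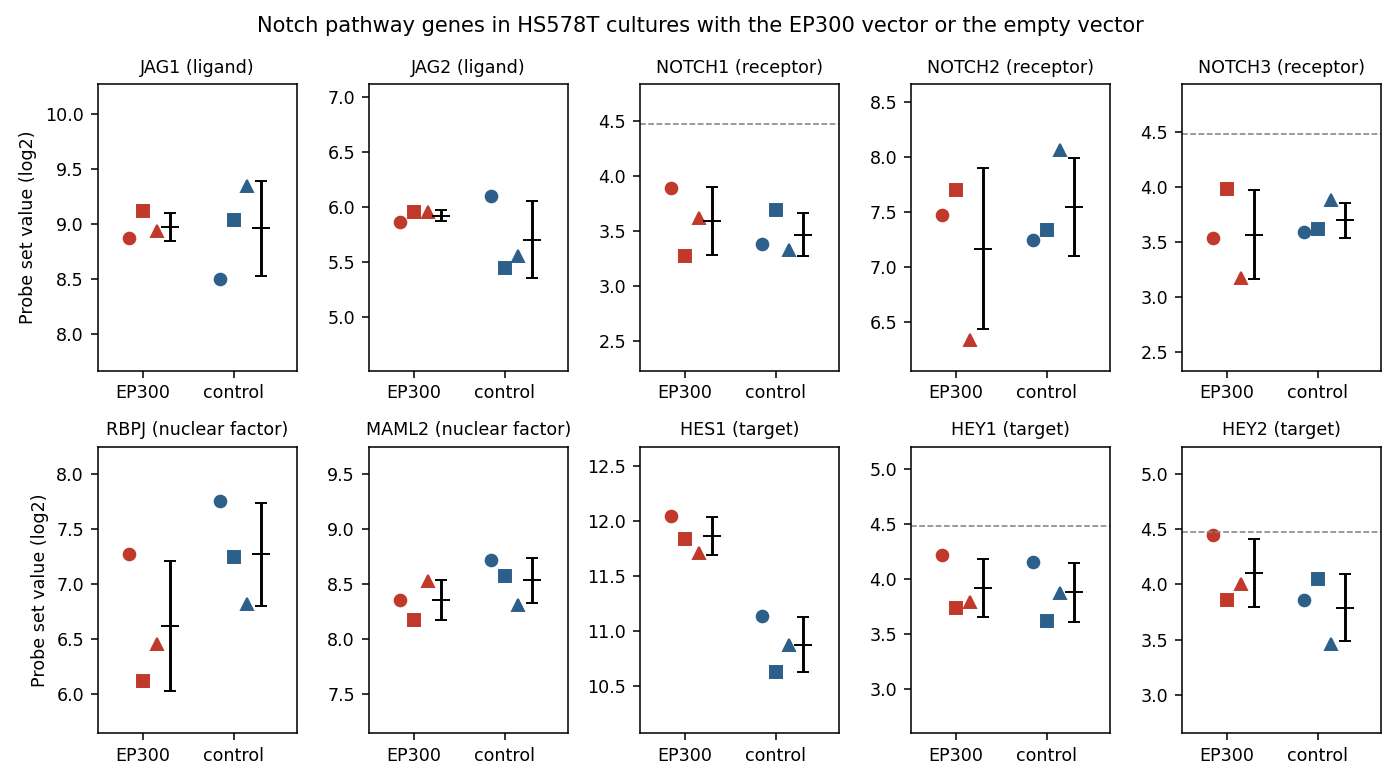
Probe set value (log2) of each of the 10 genes in every culture, with EP300 cultures in red and control cultures in blue, circles, squares and triangles for replicates 1, 2 and 3, and the mean with SD (n = 3) in black beside them. Each panel spans the same number of log2 units around its own centre, and the dashed line is the mean of the array medians where it falls in the panel. HES1 is the gene whose EP300 arrays (11.71 to 12.05) all lie above its control arrays (10.63 to 11.13).

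The ligand gene JAG1 encodes Jagged 1, which activates Notch receptors on adjacent cells. It read 8.87, 9.12 and 8.93 in the EP300 cultures, against 8.50, 9.04 and 9.34 in the control cultures. The EP300 values fell inside the range of the control values, and the difference was 0.02 ± 0.25 (limma's moderated SE). It turned to -0.22 without control replicate 1 and to -0.06 without EP300 replicate 2, and it was -0.03 after quantile normalization. The 3 EP300 cultures lay closer together (SD 0.13) than the 3 control cultures (SD 0.43). JAG1 read above the upper quartile on all 6 arrays.

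JAG2 encodes the other Jagged ligand. It read 5.86, 5.96 and 5.95 in the EP300 cultures, against 6.10, 5.45 and 5.56 in the control cultures. Control replicate 1 was the highest of the 6 arrays, and the other control arrays lay below every EP300 array. The difference was 0.22 ± 0.23, and it was 0.42 without control replicate 1 and 0.09 without control replicate 2. The spread within the EP300 cultures was small (SD 0.05, against 0.35 in control cultures).

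Among the receptors, NOTCH2 was the member that read above the array median, on all 6 arrays. It read 7.47, 7.70 and 6.33 in the EP300 cultures, against 7.25, 7.34 and 8.06 in the control cultures. EP300 replicate 3 was far below the other EP300 arrays, and control replicate 3 was above the other control arrays. The difference of -0.38 ± 0.37 was 0.04 without EP300 replicate 3 and -0.13 without control replicate 3, so it rested on those arrays. The pooled SD within groups, 0.61, lay at the 95.2 percentile of all probe sets, which makes NOTCH2 the most variable of the 10 members between replicate cultures. NOTCH2NLA, a human-specific partial copy of NOTCH2 with nearly the same sequence, also has a probe set in the annotation, and signal shared between such copies was not separated.

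NOTCH1 and NOTCH3 read below the array median on all 6 arrays, where the background is unknown, and no fold is given for them. NOTCH1 read 3.90, 3.28 and 3.62 in the EP300 cultures, against 3.39, 3.70 and 3.33 in the control cultures. NOTCH3 read 3.54, 3.98 and 3.18 in the EP300 cultures, against 3.59, 3.62 and 3.88 in the control cultures. For both receptors the groups overlapped. The difference was 0.13 ± 0.24 for NOTCH1, and -0.02 without EP300 replicate 1. It was -0.13 ± 0.25 for NOTCH3, and 0.06 without EP300 replicate 3.

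RBPJ binds DNA and is the point at which the receptor's intracellular part meets its target genes; with no Notch signal it holds corepressors there. It read 7.28, 6.13 and 6.46 in the EP300 cultures, against 7.76, 7.24 and 6.82 in the control cultures. EP300 replicates 2 and 3 lay below every control array, while EP300 replicate 1 lay above control replicates 2 and 3. The difference was -0.65 ± 0.34, a control level 1.57-fold that of the EP300 cultures. It ran from -0.98 without EP300 replicate 1 to -0.41 without EP300 replicate 2, and was also -0.41 without control replicate 1. In size it lay at the 95.5 percentile of the differences of all probe sets, and its pooled SD of 0.53 at the 90.3 percentile of all SDs. The human genome holds processed copies of RBPJ, 4 of them listed as RBPJ pseudogenes in the RefSeq table, and signal shared with these was not separated.

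MAML2 encodes a Mastermind-like co-activator that bridges RBPJ with acetyltransferases. It read 8.35, 8.17 and 8.53 in the EP300 cultures, against 8.71, 8.57 and 8.31 in the control cultures. The groups overlapped, with EP300 replicate 2 the lowest and control replicate 1 the highest. The difference was -0.18 ± 0.22, and it was -0.09 without control replicate 1, -0.09 without EP300 replicate 2 and -0.29 without control replicate 3. Its pooled SD of 0.19 was the smallest of the 10 members.

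HES1, the best known target of the pathway, encodes a repressor that binds N boxes in DNA, and in mouse it is known to repress its own gene through such sites. The sequences before the annotated starts of 4 genes of its family are shown. HES1, HEY2, HES4 and HEYL are direct Notch targets by textbook knowledge and hold TGGGAA or TTCCCA at different places. They were picked with their values in these cultures known, and a link between these letters and the differences was not tested. Each is the stretch of 250 bases before the start in RefSeq (GRCh38.p14), 5′ to 3′ on the gene's own strand. Capitals mark TGGGAA, a form of the core letters bound by RBPJ, or its reverse complement TTCCCA. They also mark CACNAG, the letters of an N box, or its reverse complement CTNGTG, where N is any base. No marked matches overlap. HES1 lies at chr3:194135898-194136147 on the plus strand, HEY2 at chr6:125749382-125749631 on the plus strand, HES4 at chr1:1000098-1000347 on the minus strand and HEYL at chr1:39639644-39639893 on the minus strand.
HES1: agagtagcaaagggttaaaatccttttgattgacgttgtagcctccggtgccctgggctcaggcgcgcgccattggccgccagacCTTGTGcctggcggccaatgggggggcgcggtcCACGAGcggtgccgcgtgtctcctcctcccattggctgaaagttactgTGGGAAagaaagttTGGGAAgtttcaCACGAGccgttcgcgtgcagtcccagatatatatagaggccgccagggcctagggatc
HEY2: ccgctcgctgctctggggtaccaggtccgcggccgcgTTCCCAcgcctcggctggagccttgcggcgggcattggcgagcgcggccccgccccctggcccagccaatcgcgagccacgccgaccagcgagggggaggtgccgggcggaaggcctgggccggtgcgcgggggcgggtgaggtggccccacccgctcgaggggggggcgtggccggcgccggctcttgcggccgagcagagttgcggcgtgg
HES4: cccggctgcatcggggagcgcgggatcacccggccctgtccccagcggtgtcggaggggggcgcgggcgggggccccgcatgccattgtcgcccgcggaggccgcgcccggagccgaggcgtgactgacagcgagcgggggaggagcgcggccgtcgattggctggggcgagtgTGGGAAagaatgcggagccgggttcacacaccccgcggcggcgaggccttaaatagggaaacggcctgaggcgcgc
HEYL: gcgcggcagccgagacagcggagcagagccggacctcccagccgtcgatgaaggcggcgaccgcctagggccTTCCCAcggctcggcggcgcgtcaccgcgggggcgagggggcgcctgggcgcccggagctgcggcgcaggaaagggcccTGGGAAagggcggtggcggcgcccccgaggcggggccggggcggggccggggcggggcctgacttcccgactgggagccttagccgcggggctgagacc

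The HES1 stretch held 2 TGGGAA matches on the same strand, beginning at -84 and -70 from the gene's start, 14 bases apart. It also held 3 N box matches, beginning at -165, -132 and -58. HEY2 held 1 TTCCCA at -213, HES4 held 1 TGGGAA at -76, and HEYL held TTCCCA at -178 and TGGGAA at -99. None of these 3 stretches held an N box match. Among 35116 stretches of the same length before RefSeq gene starts, 20.8% held at least 1 TGGGAA or TTCCCA and 2.9% at least 2, and 32.0% held at least 1 N box match and 0.911% at least 3. A same-strand pair of TGGGAA, or of TTCCCA, starting no more than 14 bases apart was found in 44 of them (0.125%). This pattern and its limit were taken from HES1 itself, which is thus among the 44, so the share is no test of HES1. Of the members, 9 had a stretch, and HEY1 had none and was not searched. TGGGAA and TTCCCA were each found before 1 of 5 annotated starts of RBPJ, while JAG1, JAG2, NOTCH1, NOTCH2, NOTCH3 and MAML2 held neither there. N box matches were found for NOTCH3 (1), MAML2 (2) and another start of RBPJ (1). A match is a run of letters and was not tested as a binding site. RBPJ sites with other letters were not searched, so these counts do not give the number or spacing of its sites.

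**Figure D2:**
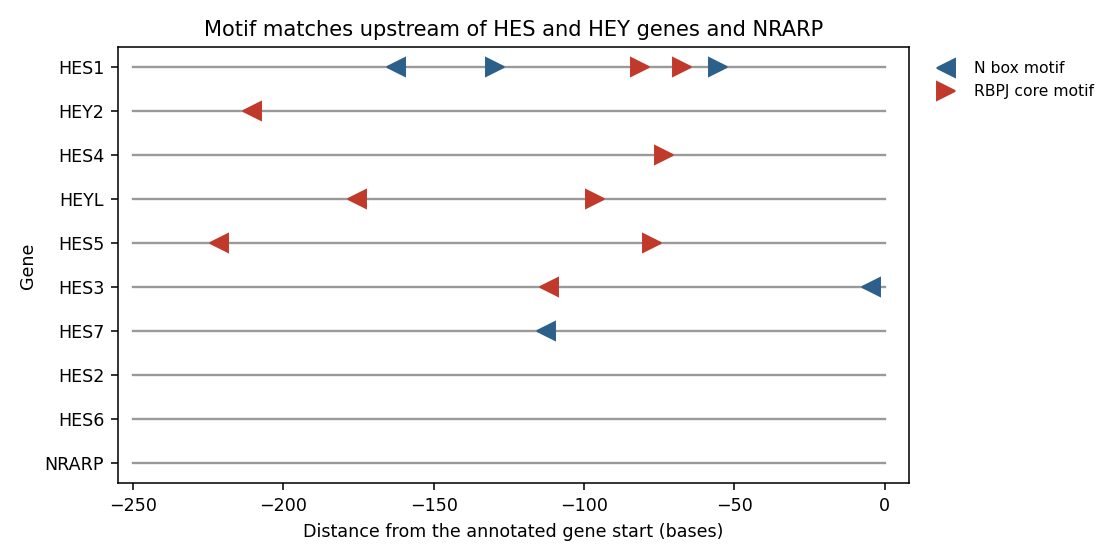
Motif matches in the 250 bases before the annotated start (x axis, bases from the start) of HES1, HEY2, HES4, HEYL, HES5, HES3, HES7, HES2, HES6 and NRARP. The RBPJ core motif (TGGGAA or TTCCCA only) is in red and the N box motif in blue. Arrowheads point along the strand that holds the letters. HEY1 had no stretch and is not drawn. HES1 has 2 TGGGAA matches starting 14 bases apart, with N box matches on both sides of them. RBPJ sites with other letters were not searched.

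HES1 read 12.05, 11.84 and 11.71 in the EP300 cultures, against 11.13, 10.63 and 10.87 in the control cultures. The lowest EP300 array stood above the highest control array, and within each group the arrays lay close together (SD 0.17 in EP300 cultures and 0.25 in control cultures). The means were 11.87 in EP300 cultures and 10.88 in control cultures, a difference of 0.99 ± 0.22, or 1.98-fold. In such bulk RNA, more cells that express a gene and more of its RNA per cell cannot be told apart. With each array left out in turn it stayed between 0.86 (without control replicate 2) and 1.11 (without control replicate 1). A difference of at least this size in either direction was found for 126 of 21448 probe sets (0.587%). HES1 was above the upper quartile on all 6 arrays, and its pooled SD of 0.22 lay at the 22.6 percentile of all probe sets. Of the 4 marker lists above, the mesenchymal one had a lower sum in the EP300 cultures, in the direction opposite to HES1. The sum of its 8 log2 levels ran from 116.1 to 117.5 in the EP300 cultures, against 117.8 to 118.5 in the control cultures. These sums did not overlap, where 12.2% of all single probe sets had groups that did not. The 8 markers are not given singly here, so the sum does not show how many of them were lower. The sums of the other lists overlapped between groups. Whether the lower mesenchymal sum is related to the HES1 difference was not tested. HES1 was known from an earlier look at these data, so neither its rank nor its separation is independent support.

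HEY1 and HEY2 encode hairy-related repressors that are targets of Notch in vessels and heart. HEY1 read 4.22, 3.73 and 3.79 in the EP300 cultures, against 4.15, 3.62 and 3.87 in the control cultures. The groups interleaved, and the difference was 0.04 ± 0.24, turning to -0.12 without EP300 replicate 1 and to -0.10 without control replicate 2. HEY2 read 4.45, 3.86 and 4.01 in the EP300 cultures, against 3.86, 4.05 and 3.46 in the control cultures. EP300 replicate 1 was the highest and control replicate 3 the lowest, with the other arrays between them. The difference was 0.31 ± 0.25, and it was 0.14 without EP300 replicate 1 and 0.15 without control replicate 3. Both genes read below the median on all 6 arrays, so no fold is given, and a difference between HES1 and HEY1 or HEY2 in their response was not tested.

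**Figure D3:**
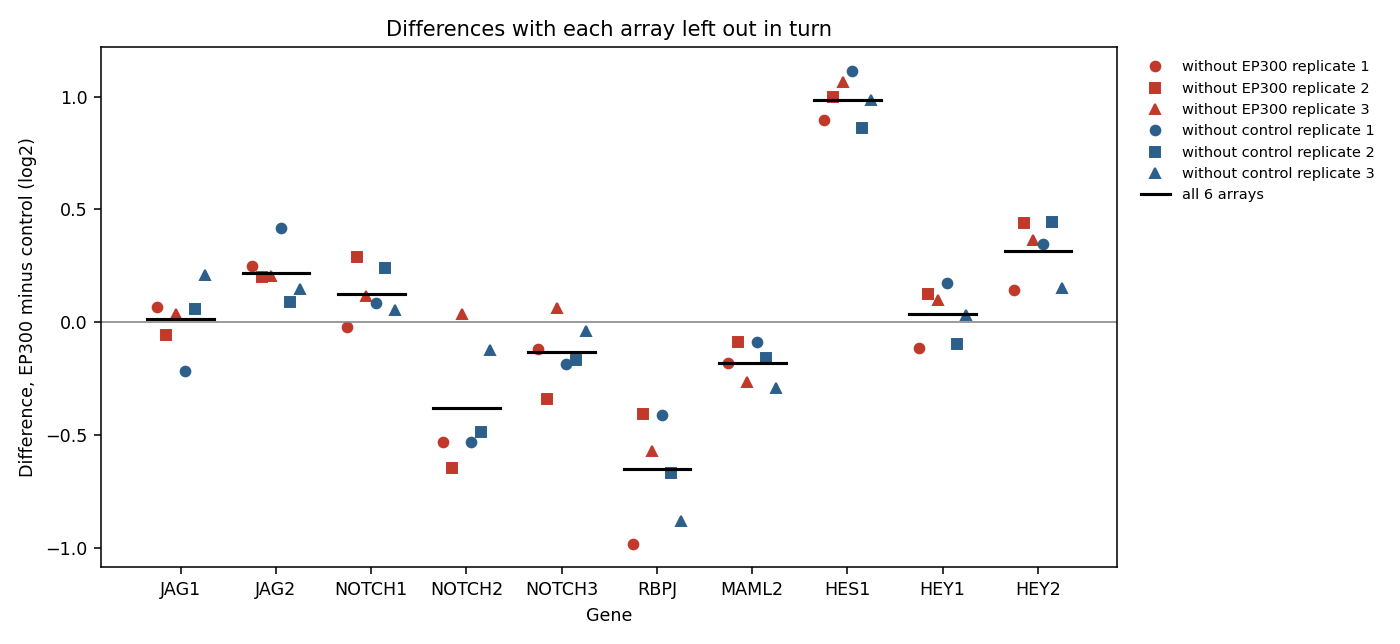
Difference between EP300 and control cultures (log2) for each of the 10 genes, with each array left out in turn (points) and with all 6 arrays (black line). The HES1 points lie between 0.86 and 1.11 and the RBPJ points between -0.98 and -0.41, while JAG1, NOTCH1, NOTCH2, NOTCH3 and HEY1 each have at least 1 point on either side of 0.

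**Figure D4:**
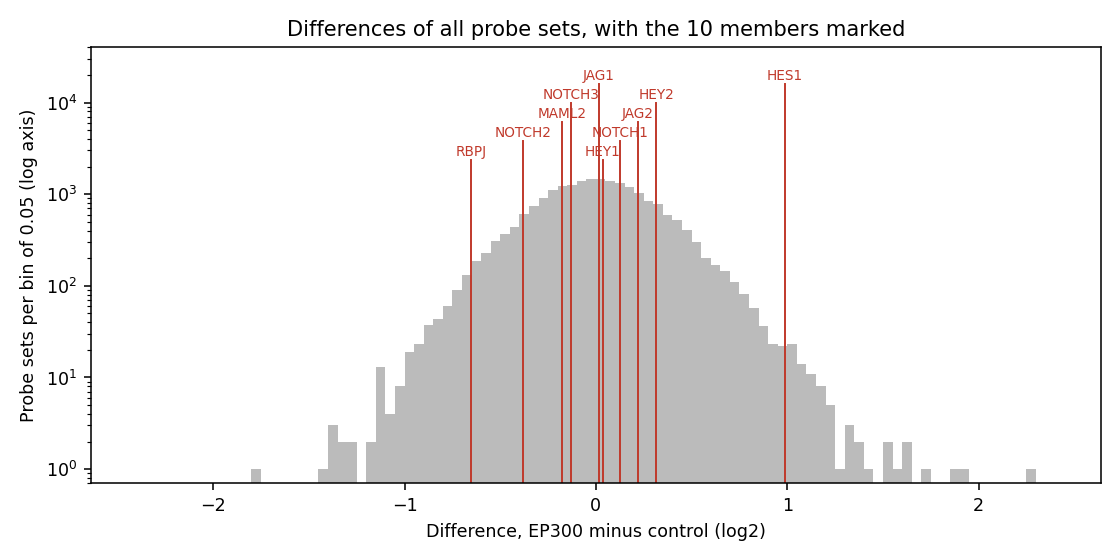
Number of probe sets (log axis) by difference between EP300 and control cultures (log2, bins of 0.05) over all 21448 probe sets, with the 10 genes marked in red. HES1 (0.99) stands in the upper tail and RBPJ (-0.65) in the lower flank, with the other 8 between -0.38 and 0.31.

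The rest of the pathway was read from 9 lists with 72 genes, of which 64 had a probe set by symbol. The other 8 were not analysed here. Of the 64 genes 0 passed limma's adjusted p of 0.05 in either direction. At an unadjusted p below 0.05 there were 5 (7.81%), 1 higher (SNAI2) and 4 lower (ADAM17, HEYL, NRARP and CCND1) in EP300 cultures, where 6.52% of all probe sets had such a p. Groups did not overlap for 9 of the 64 (14.1%), close to the 12.2% of all probe sets, with 4 of the 9 higher (POGLUT1, SNAI2, CDKN1A and NEUROG3) and 5 lower (ADAM17, MIB2, HEYL, NRARP and CCND1). The median difference was 0.03, and the lowest limma adjusted p among the 64 was 0.738.

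Among other receptors and ligands, 6 of 7 had a difference above 0, with a median of 0.23, and 0 passed. DNER, a ligand-like membrane protein of neurons, was the 1 gene of the list to read above the median on all 6 arrays. It read 5.99, 6.28 and 5.68 in the EP300 cultures, against 5.84, 5.42 and 5.51 in the control cultures, a difference of 0.39 ± 0.24 (0.24 without EP300 replicate 2). The Delta-like ligands DLL1, DLL3 and DLL4 differed by 0.27, -0.20 and 0.23, and the receptor gene NOTCH4 by 0.10. The value of DLL1 was 0.03 without control replicate 1, 0.05 without EP300 replicate 2 and 0.41 without either control replicate 2 or EP300 replicate 3. The value of DLL3 ran from -0.35 without EP300 replicate 3 to -0.09 without control replicate 2. The DLK1 and DLK2 genes, for Delta-like proteins without the usual receptor-binding domain, differed by 0.06 and 0.26, and DLK2 ran from 0.13 without control replicate 2 or EP300 replicate 2 to 0.41 without control replicate 1. Direction turned for DLL4 without EP300 replicate 2 (-0.01), for NOTCH4 without EP300 replicate 3 (-0.03) and for DLK1 without EP300 replicate 1 (-0.18). DLL3, DLK1 and DLK2 read below the median on all 6 arrays.

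Of the 8 measured genes for cleavage of the receptor, all 8 read above the median on all 6 arrays. Of these 8, 2 had a difference above 0 and 6 below it, with a median of -0.063. ADAM17, a surface protease that can cut the receptor, read 6.60, 6.22 and 6.20 in the EP300 cultures, against 6.77, 7.34 and 6.89 in the control cultures. The groups did not overlap, and the difference was -0.66 ± 0.24 (limma adjusted p = 0.746). The gamma-secretase subunit genes APH1B and PSENEN differed by 0.28 ± 0.23 and 0.24 ± 0.22, and both were 0.14 without control replicate 2, with APH1B at 0.45 without control replicate 1. These are the 2 genes of the list above 0, and the other 3 gamma-secretase subunit genes measured differed by -0.37 to -0.03. POGLUT1, which adds O-glucose to the receptor, read 6.79, 6.91 and 6.71 in the EP300 cultures, against 6.31, 6.70 and 6.03 in the control cultures. Its lowest EP300 array stood just above its highest control array, and the difference was 0.46 ± 0.23 (0.30 without control replicate 3, limma adjusted p = 0.792). The fringe genes RFNG and MFNG, for sugar transferases that tune ligand choice, differed by 0.19 and 0.12. These became -0.13 without EP300 replicate 2 for RFNG, and -0.07 without control replicate 1 and -0.06 without EP300 replicate 3 for MFNG.

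Among 13 genes for endocytosis and turnover, 7 had a difference above 0. MIB2, a ubiquitin ligase that acts on ligands, read 4.19, 4.31 and 4.43 in the EP300 cultures, against 5.07, 4.70 and 4.59 in the control cultures, near the array median. The groups did not overlap, with a difference of -0.48 ± 0.22 (limma adjusted p = 0.775). DTX3 and DTX4, of the Deltex family of ubiquitin ligases, differed by 0.43 ± 0.32 and -0.34 ± 0.21, and DTX3 ran from 0.24 without control replicate 3 to 0.77 without EP300 replicate 1.

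Nuclear coactivators had differences between -0.23 and 0.26 over 6 genes, and groups overlapped for all 6. The paralog of EP300, CREBBP, read 9.71, 9.81 and 10.69 in the EP300 cultures, against 9.65, 9.59 and 10.18 in the control cultures, and its difference of 0.26 was -0.05 without EP300 replicate 3. MAML1, the founding Mastermind-like gene, differed by -0.23 ± 0.25 (-0.06 without control replicate 1, -0.12 without EP300 replicate 2 and -0.42 without control replicate 2), and KAT2B, an acetyltransferase, by -0.10 ± 0.28 (0.11 without control replicate 3 and 0.06 without EP300 replicate 1). The list of corepressors had 9 measured genes, among them RBPJL, a paralog of RBPJ that is not itself a corepressor. Groups overlapped for all 9, and 5 had a difference above 0 and 4 below it, from -0.35 (RBPJL) to 0.49. Apart from RBPJL the lowest was CTBP1 (-0.24). The 3 with the smallest p were all higher. The deacetylase gene HDAC1 differed by 0.49 ± 0.26, SPEN, which encodes an RBPJ-binding repressor, by 0.37 ± 0.25 (0.23 without EP300 replicate 2 and 0.59 without EP300 replicate 1), and the Groucho-family gene TLE4 by 0.43 ± 0.29 (0.25 without control replicate 3 and 0.15 without EP300 replicate 1).

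Of 7 other HES and HEY genes, 4 had a difference above 0 and 0 passed. HES4 held the TGGGAA match shown above. It read 7.30, 7.39 and 8.14 in the EP300 cultures, against 7.04, 7.07 and 7.43 in the control cultures. EP300 replicate 3 stood apart as the highest, and the difference of 0.43 ± 0.27 was 0.16 without it. HEYL held TTCCCA and TGGGAA. It read 3.39, 3.15 and 3.41 in the EP300 cultures, against 4.03, 3.65 and 4.32 in the control cultures. Its groups did not overlap, in the direction opposite to HES1, with a difference of -0.68 ± 0.24 (limma adjusted p = 0.741), and all 6 of its values lay below the array median. HES2, HES3, HES5, HES6 and HES7 differed by 0.02, -0.01, 0.17, 0.02 and -0.06, and for each of these 5 the direction turned without 1 of the arrays. HES5 also held TTCCCA (-224) and TGGGAA (-80), and HES3 held TTCCCA (-114), while HES2, HES6 and HES7 held 0 such matches.

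Among 8 other reported targets, groups did not overlap for 4, of which 2 were higher and 2 lower in EP300 cultures (50%, where 12.2% of all probe sets had such groups, 6.3% higher and 5.91% lower), and 0 passed. Members of this list were chosen with earlier results of these data known. SNAI2, which encodes the repressor SLUG, read 17.01, 17.28 and 17.44 in the EP300 cultures, against 16.80, 16.30 and 16.50 in the control cultures (difference 0.71 ± 0.23, limma adjusted p = 0.738). CCND1, which encodes cyclin D1, read 10.93, 10.89 and 11.28 in the EP300 cultures, against 11.56, 11.96 and 11.64 in the control cultures (-0.69 ± 0.22, limma adjusted p = 0.738). CDKN1A, for the cell cycle inhibitor p21, is named after its values were seen as the other target whose groups did not overlap with EP300 arrays higher. It averaged 7.26 ± 0.14 in the EP300 cultures and 6.89 ± 0.11 in the control cultures (SD, n = 3 each), a difference of 0.38 (0.32 to 0.46 with each array left out in turn). NRARP, which encodes a feedback inhibitor of Notch, read 2.89, 3.32 and 2.65 in the EP300 cultures, against 3.48, 3.65 and 3.60 in the control cultures (-0.62 ± 0.23, limma adjusted p = 0.748), all below the array median. Of genes that HES1 is known to repress, CDKN1B, for the cell cycle inhibitor p27, had a difference of -0.00421 (0.13 without control replicate 3), and NEUROG3 and ATOH1, factors of endocrine and neural cells, differed by 0.44 ± 0.21 and 0.18 ± 0.23. The groups of NEUROG3 did not overlap, with the EP300 arrays higher (limma adjusted p = 0.781), where 6.3% of all probe sets had such groups. NEUROG3 read 4.80, 4.90 and 4.64 in the EP300 cultures, against 4.47, 4.37 and 4.18 in the control cultures. All its control values lay below the array median. ATOH1 was 0.01 without EP300 replicate 3 and 0.35 without EP300 replicate 1, and it read below the lower quartile on all 6 arrays.

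**Figure D5:**
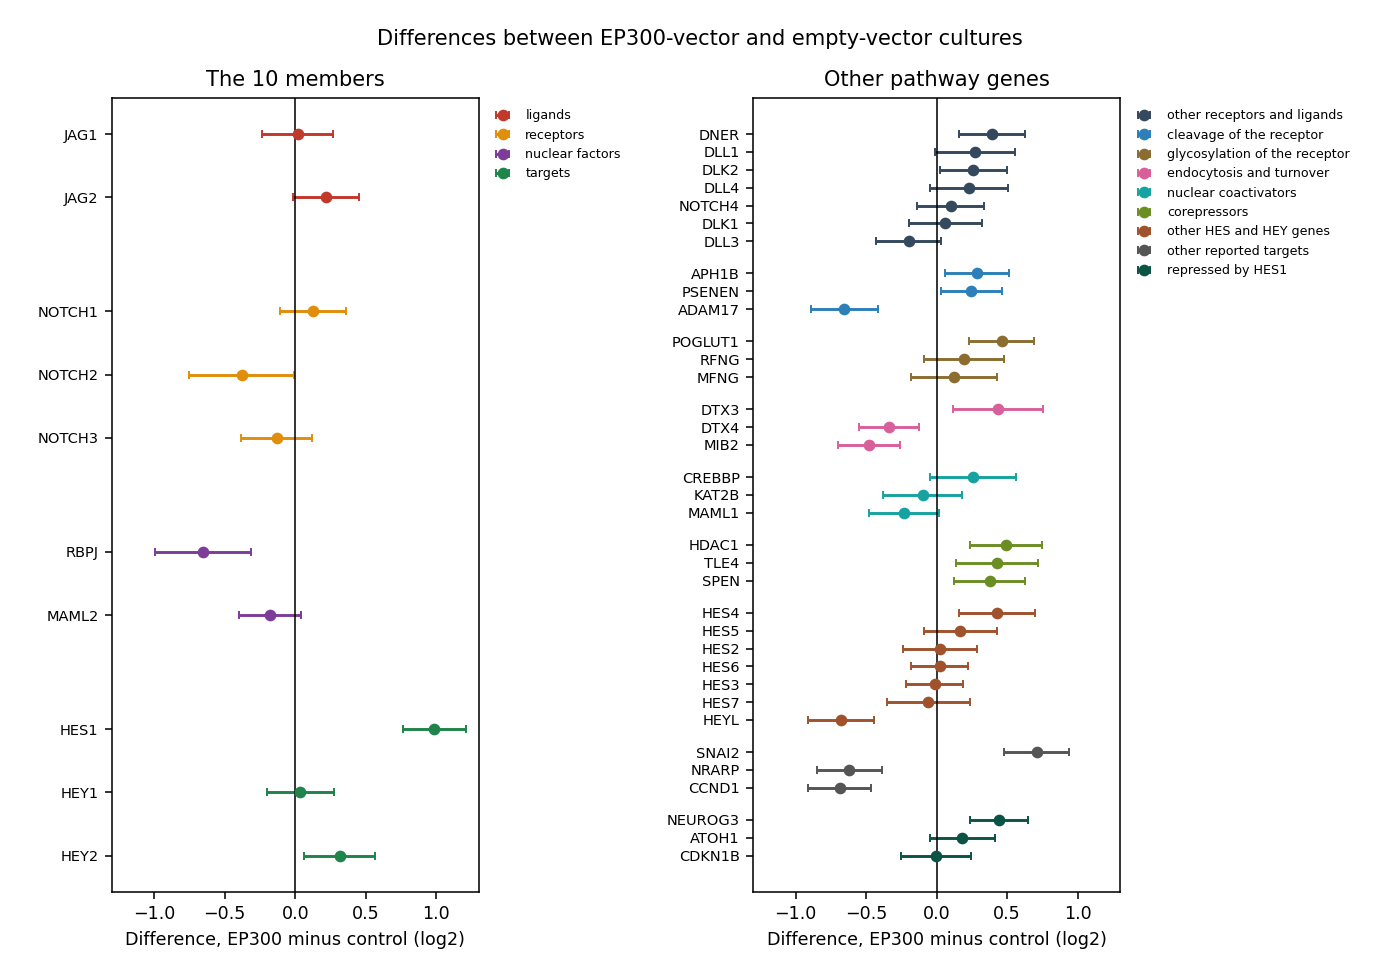
Difference between EP300 and control cultures (log2, x axis) with limma's moderated SE for the 10 members (left) and for named genes of 9 other pathway lists (right, coloured by list). HES1 (0.99) lies furthest to the right, and RBPJ (-0.65), ADAM17 (-0.66), HEYL (-0.68) and CCND1 (-0.69) lie furthest to the left.

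The named genes outside the pathway lists whose values over the 6 arrays were most like those of HES1 were AQR, RHOBTB2, MMP2, ABI3BP and NLRP9, with Pearson correlations of 0.995, 0.986, 0.986, 0.984 and 0.982. AQR, which encodes an RNA helicase, read 6.98, 6.84 and 6.67 in the EP300 cultures, against 6.05, 5.72 and 5.93 in the control cultures. MMP2, which encodes a gelatinase of the matrix, read 11.03, 10.67 and 10.66 in the EP300 cultures, against 10.29, 9.68 and 9.88 in the control cultures. The genes with the most opposite pattern were HNRNPL, HBB and FIBP, with correlations of -0.994, -0.987 and -0.983. Genes were taken where the mean over the 6 arrays was above the median of such means, and RHOBTB2 and NLRP9 passed through the EP300 cultures alone, with all 3 control arrays below the array median, and HBB through the control cultures alone, with all 3 EP300 arrays below it. For these 3 genes the choice by level favours a split between the groups, and with it the likeness. Of 9206 probe sets considered, 85 (0.923%) had a correlation with HES1 above 0.9, a count that the same choice by level can raise. These correlations run over 6 arrays that share the split between EP300 and control cultures, and are a description of likeness.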

How the data were processed

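Per the labels' protocols, Qiagen RNeasy served for RNA isolation and WT PLUS reagents for labelling. The submitters' processing notes name Partek 6.6. How the authors corrected background, normalized and summarised the arrays, and on which build, is not given in the sources used here. Each array has 1 deposited value per probe set, taken as log2 because the values run from 1.787 to 19.93; the authors' own statement of the scale was not found. The annotation gave 1 symbol for 17709 probe sets, several for 0 and none for 3739.

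EP300 cultures were compared with control cultures (3 arrays each) in R 4.3.3 with limma 3.58.1 (lmFit, then eBayes), over all 21448 probe sets with no filter or covariate, with Benjamini-Hochberg adjustment and a threshold of 0.05. The fit was tested on simulated data, where high recovery was required only for planted changes larger than any member's difference. Recovery at the sizes seen here is not given, so the test does not explain the absence of calls. The number of arrays limits the precision. Members and lists were chosen with earlier results of these data known. Named were the members, all measured genes of the lists of other receptors and ligands and of other HES and HEY genes, the 3 genes with the smallest p of each other list, CREBBP, and the genes most and least like HES1 among probe sets above the median mean level. CDKN1A was added after its values were seen. Sequences before gene starts came from RefSeq (GRCh38.p14) and were searched with Python 3.11.15. Alternatives were other scalings, a level filter, 1 probe set per gene, a variance trend, the replicate number as a block, and leaving out each array. Deviations of same-numbered cultures correlated at -0.00153, -0.00528 and -0.00893, below the 0.1 set for pairing, so the numbers do not pair the cultures.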

Additional observations from a re-analysis of the deposited data

How the results depend on the processing

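The value of HES1 was 0.94 after quantile normalization and 0.99 after median centring. A level filter, 1 probe set per gene, the priors and the block cannot change a difference of group means, so they are no test of it. Over 54 named genes, CDKN1A among them, the direction turned for 18 when 1 array was left out, 5 of them members (JAG1, NOTCH1, NOTCH2, NOTCH3 and HEY1), and quantile normalization turned JAG1. Without 1 array the members with a difference above 0 numbered 4 to 8, and their median difference ran from -0.069 to 0.080. Groups did not overlap for 1 or 2 members (21.6% to 23.1% of all probe sets). HES1 was 1 of them each time, as it had to be, since leaving out an array cannot make separate groups overlap. The second was JAG2 without control replicate 1, HEY2 without control replicate 2, MAML2 without control replicate 3, RBPJ without EP300 replicate 1 and NOTCH3 without EP300 replicate 2. The median difference of the other pathway genes ran from 0.029 to 0.106 without 1 array (0.11 without control replicate 3 and 0.08 without EP300 replicate 1), and the number at an unadjusted p below 0.05 from 4 to 6. Among probe sets above the median level, 6 members and 43 other pathway genes were left; 3 of the 6 had a difference above 0, with a median of -0.082, and the median of the 43 was 0.10, from fewer genes. By limma 0 probe sets were called in each setting without 1 array, and 0 of the other pathway genes in any setting run. With a variance trend and robust estimation 4 probe sets passed, and with a variance trend alone, chosen after seeing the data, 12; the cause was not tested. With the replicate number as a replicate block, which the numbers do not support as a pairing, 0 probe sets were called and 1295 had an unadjusted p below 0.05, against 1399 without it. Exact permutation tests of single genes were not run, since 3 arrays against 3 cannot give a p below 0.1. Levels near or below the array median (NOTCH1, NOTCH3, HEY1, HEY2, HEYL and NRARP) limit what their differences show. The same holds for DLL1, DLL3, DLL4, DLK1, DLK2, NOTCH4, MFNG, MIB2, DTX3, DTX4, HES2, HES3, HES5, HES6, HES7, NEUROG3 and ATOH1.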
